A study of Zea mays with 4 samples.

Results

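The binding sites of the maize factor C3H23 (Zm00001d008323) were described from all peaks listed for the library titled C3H23. This list held 76032 of the 398506 peaks of the series, or 19.1%. The series used DNA affinity purification sequencing (DAP-seq) for 4 maize factors, with 1 library for each. The other factors were CPP2 with 165420 peaks, OBF4 with 51187 and THX20 with 105867. All 4 libraries were made from genomic DNA of B73 leaves at 14 DAG. Each factor was a Halo-tagged full-length protein made in a wheat germ extract and held on magnetic beads. Because purified DNA was used, a peak marks a place that the protein can bind outside the cell, and not occupancy in leaf or endosperm.

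CCCH zinc finger proteins carry fingers in which cysteines and a histidine hold a zinc ion. Many members of the family bind RNA and act on mRNA turnover, while others act in the nucleus as regulators of transcription. Naked DNA in DAP-seq keeps its sequence and its cytosine methylation but loses nucleosomes and partner proteins. The submitters place the 4 factors downstream of ZmNAC128 and ZmNAC130, a pair of NAC proteins known to control the filling of the maize endosperm with starch and protein. Going by their names, THX20 is a trihelix protein, OBF4 a bZIP protein and CPP2 a member of the CPP family with its cysteine-rich domains.

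The label was followed with a limit. The name inside the deposited peak list was another C3H number than the sample title, and the title and its gene identifier were kept. With 1 library and no replicate, no value below has a replicate check and no p-value is given. Intervals are 95% intervals (Wilson for shares, exact Poisson for counts). They cover only the counting of peaks, which are not independent of their neighbours. The number of reads is unknown. Positions are those of the list, counted from 1, and no gene, exon or sequence was assigned to a site.

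C3H23 sites formed a continuous range of signal with a short upper tail. The authors' signal per peak, whose scale is not stated, ran from 16.6 to 657 with a median of 36. The 10th percentile was 22.6 and the 90th percentile 86.1, a ratio of 3.81. The same ratio was 5.48 for CPP2, 3.05 for OBF4 and 5.02 for THX20, so the spread of C3H23 signal lay between those of the other lists. A signal of at least 100 was reached by 5129 peaks (6.75%), of at least 200 by 351 peaks and of at least 400 by 19 peaks. At the other end, 25595 peaks (33.7%) had a signal under 30. The strongest 10% of peaks held 26.0% of the summed signal and the weakest 50% held 28.7%. Many sites were close to the listing limit: 8246 peaks (10.8%) had a −log10 q under 3.5, where the lowest value listed was 3. A −log10 q of at least 10 was reached by 22774 peaks (30.0%). Signal and −log10 p ranked the peaks nearly alike (Spearman correlation 0.924 over 76032 peaks of this library).

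The 10 peaks of highest signal lay on 7 chromosomes. The strongest was on chromosome 2 from 216997978 to 216998178 with a signal of 657. It was followed by a peak on chromosome 4 from 183175869 to 183176069 with a signal of 652, and the third was on chromosome 8 from 147358196 to 147358396 with 633. A signal of 607.6 was listed on chromosome 7 from 128897563 to 128897763, and 572 on chromosome 4 from 236068414 to 236068614. These leading peaks stood far above the bulk, since the strongest was 18.3 times the median. The remaining 5 had signals of 541.2 to 500.6 and lay on chromosomes 10, 8, 3, 4 and 6. Of the 10 peaks, 4 had another C3H23 summit within 1 kb and 5 overlapped a peak of another factor (2 CPP2, 1 OBF4 and 2 THX20). The strongest peak of each chromosome ranged from 336.3 on chromosome 9, from 137977325 to 137977525, up to the 657 of chromosome 2.

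For the comparisons that follow, the peaks were divided by signal into 10 classes of 7603 or 7604 peaks, class 1 being the strongest. Peaks of equal signal were ordered by −log10 p. Class 1 ran from 86.1 to 657 with a median of 110, and class 10 from 16.6 to 22.6 with a median of 20.7. The median −log10 p was 27.77 in class 1 and 3.67 in class 10.

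C3H23 summits were grouped, and strong sites more so than weak ones. Another C3H23 summit lay within 1 kb of 21730 peaks, or 28.6% (28.3 to 28.9). Uniform placement of the same number of peaks would give 6.92%, so the share was 4.13 times as large. Using the density of each 1 Mb bin instead gave 7.37% and a fold of 3.88, so most of the excess remained when the profile along the chromosomes was taken into account. The grouped share was 41.9% in CPP2, 12.6% in OBF4 and 41.6% in THX20, at folds over uniform placement of 2.91, 2.68 and 4.38. The lists differ in length, on which both measures depend: in the stronger 50% of the C3H23 list alone the fold was 8.22. The median distance to the nearest C3H23 summit was 4980.5 bp, against 9703 bp for uniform placement.

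The grouped share depended on signal class. It was 55.1% (54.0 to 56.2) in class 1, 44.7% in class 2, 37.1% in class 3 and 27.8% in class 4. It was lower in the middle of the range, with 24.7% in class 5, 20.3% in class 6 and 19.9% in class 7. The lowest shares were 17.3% in class 8 and 17.1% (16.3 to 17.9) in class 9, and the weakest class stood higher again at 21.8% (20.9 to 22.8). Every class was above the uniform expectation. The median distance to the nearest summit was 583 bp in class 1 and 6598 bp in class 10. Grouped peaks had a median signal of 48.1 and single peaks one of 33.8, a ratio of 1.42. This ratio was 1.12 in CPP2, 1.15 in OBF4 and 1.19 in THX20, each taken within its own list, so that of C3H23 was the highest of the 4 lists.

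**Figure D1:**
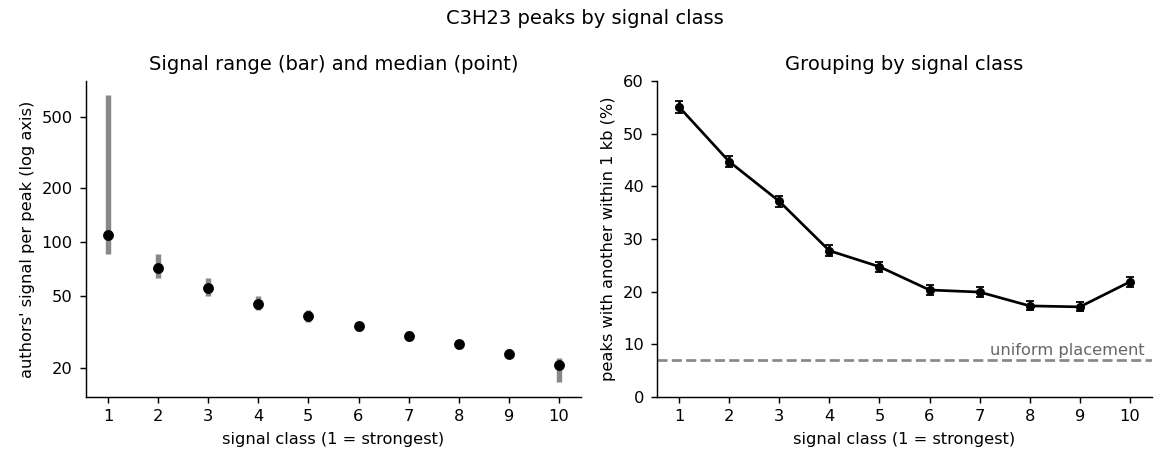
C3H23 peaks by signal class (1 is the strongest). The left panel gives the authors' signal on a log axis as the class range (bar) and median (point). The right panel gives the percent of peaks with another C3H23 summit within 1 kb, with 95% Wilson intervals and the uniform expectation of 6.92% as a dashed line. The share runs from 55.1% in class 1 down to 17.1% in class 9, with 21.8% in class 10.

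Most groups were pairs. Summits linked at 1 kb or less formed 54302 single sites, 8484 pairs, 1217 groups of 3, 232 groups of 4, 29 groups of 5, 4 groups of 6 and 2 groups of 7. Uniform placement at this density gives 2491 pairs, 88.2 groups of 3 and 3.15 groups of 4, so the ratio to it was 3.41, 13.8 and 73.7. Larger groups were listed far more often than such placement gives. Within pairs the stronger peak had a median signal of 65 and the weaker of 34.6, against 33.8 for single sites. The median ratio within a pair was 1.59 and the median distance 307 bp. Because the peaks of a pair were ordered by signal, these medians differ by construction.

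The 5 largest groups did not hold the strongest peaks of the list. The median signal of peaks was 33.8 in single sites, 47.1 in pairs, 50.4 in groups of 3 and 54.8 in groups of 4. It was 53.9 in groups of 5, 54.6 in groups of 6 and 37.75 in the 2 groups of 7. A group of 7 peaks lay on chromosome 4 from 13329145 to 13332211, with signals from 27.5 to 100.3. The other group of 7 lay on chromosome 6 from 59343466 to 59346777, with signals from 23.6 to 63.4. Groups of 6 lay on chromosome 5 from 129123682 to 129127243 and from 179898200 to 179899504, and on chromosome 2 from 234102767 to 234105519. Their strongest peaks had signals of 136.7, 112.1 and 107.1. In the 5 groups together, CPP2 overlapped 1 peak, OBF4 1 and THX20 3. Over all C3H23 peaks the overlap was 10.8% with CPP2, 3.55% with OBF4 and 7.94% with THX20. Counts this small do not set the groups apart from the list. The likeness of neighbouring summits in signal varied with their distance. The Spearman correlation of neighbours' signals was 0.0831 over 2306 pairs at 100 to 200 bp, 0.269 over 2928 pairs at 200 to 300 bp and 0.343 over 3515 pairs at 300 to 500 bp. It was 0.231 over 3206 pairs at 1 to 2 kb and 0.0387 over 7616 pairs at 2 to 5 kb. These pairs share a library, and the correlation is a description.

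The density of C3H23 summits around each other was highest at 100 to 500 bp. Distances were set against the density of C3H23 summits at 20 to 100 kb from a C3H23 summit, taken as 1. Each pair was counted from both of its summits, so the intervals of these densities are too narrow. The density was 0.295 (0.236 to 0.364) below 50 bp and 2.88 at 50 to 100 bp. It was 7.95 at 100 to 200 bp, 10.2 (9.92 to 10.4) at 200 to 300 bp and 6.61 at 300 to 500 bp. Beyond this it was 2.46 at 500 to 1000 bp, 1.55 at 1 to 2 kb, 1.41 at 2 to 5 kb and 1.13 at 5 to 20 kb. The density per bp was therefore highest at 100 to 500 bp, and it stayed above the reference level in each band from 50 bp to 20 kb. Below 50 bp the summits were fewer than the surroundings give, with 86 peaks having a neighbour that near, and how the unnamed peak caller separates close summits is not given in the sources used here. Around class 1 peaks the density at 200 to 300 bp was 17.9 (16.9 to 19.01), and around class 10 peaks 8.33 (7.59 to 9.13). In these classes, pairs with both summits in the class were counted from both.

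Counted bp by bp, a pair of distances stood out within this broad maximum. The 21 bp running mean was highest at 269 bp, with 33.1 pairs per bp, 11.3 times the level at 20 to 100 kb. At exactly 269 bp there were 66 pairs, where the surrounding 20 distances averaged 31.5, with 48 pairs at 1 bp less and 44 at 1 bp more. At 353 bp there were 56 pairs against a mean of 24.1, with 25 and 32 pairs at the neighbouring distances. The 269 bp maximum was spread over its neighbours, while that at 353 bp was confined to 1 distance. These were the only distances between 15 and 1000 bp found at least 20 times and over 2 times and 4 Poisson SD above the 20 around them.

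Each distance occurred on all 10 chromosomes, with between 2 and 10 pairs on a chromosome. Surrounding distances averaged 31.5 pairs around 269 bp and 24.1 around 353 bp, so many of these pairs would be found at any near distance. The spread over chromosomes therefore does not describe the excess pairs alone. Pairs 353 bp apart were of higher signal (median of all their peaks 70) than those 269 bp apart (54.3). Neighbouring summits in general had a median of 48 at 200 to 300 bp and 53.3 at 300 to 500 bp. The strongest single peak in a pair at 353 bp belonged to summits at 115612077 and 115612430 on chromosome 9, with signals of 120.3 and 209.7. That at 269 bp belonged to summits at 78368933 and 78369202 on chromosome 7, with signals of 53.4 and 161.6. At 353 bp the first summit was the stronger one in 29 of 56 pairs, and at 269 bp in 35 of 66. The first summit is the one of lower coordinate and the strand is unknown, so these counts cannot show whether one side leads. Whether these pairs share sequence was not tested, because no genome of the list's build was used here.

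**Figure D2:**
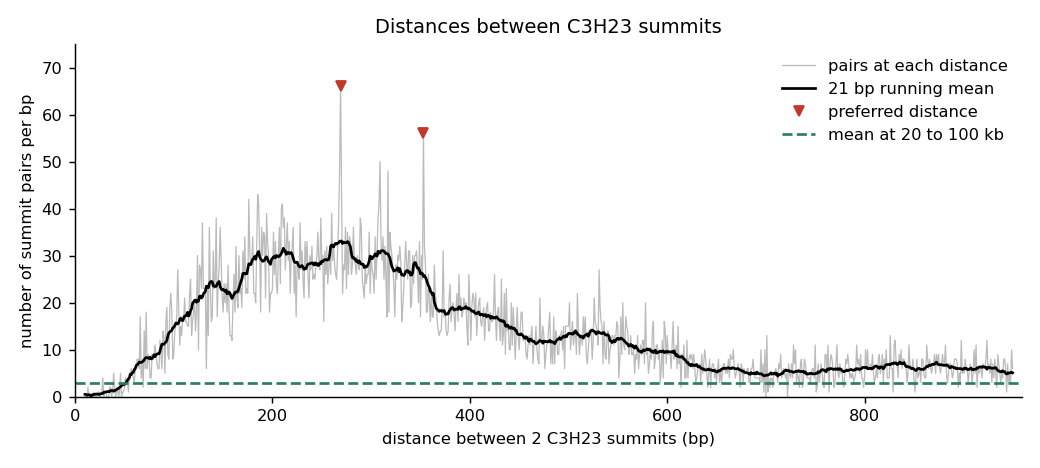
Number of C3H23 summit pairs at each distance up to 950 bp (grey), with a 21 bp running mean (black) and the mean at 20 to 100 kb (dashed). The broad maximum lies between 100 and 500 bp, and the triangles mark 269 bp (66 pairs) and 353 bp (56 pairs).

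All 10 chromosomes carried C3H23 sites at similar mean density. It ran from 33.4 peaks per Mb (32.8 to 34.1) on chromosome 1 to 37.7 (36.8 to 38.6) on chromosome 7. The median signal per chromosome ranged only from 35.8 on chromosome 8 to 37 on chromosome 7. The grouped share was lowest on chromosome 1 with 27.4% and highest on chromosome 6 with 31.0%.

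Within chromosomes the density was highest in the interior. The central 20% of the length held 41.9 peaks per Mb and the outer 10% at each end together 29.8, a ratio of 1.41 (1.37 to 1.44). The ratio was 1.18 in CPP2, 1.36 in OBF4 and 1.29 in THX20, and the interval of C3H23 overlapped that of OBF4 (1.32 to 1.40). It was highest on chromosome 2 with 1.74 (1.62 to 1.86) and chromosome 5 with 1.70. Chromosome 1 followed with 1.52, chromosome 6 with 1.40, chromosome 3 with 1.39, chromosome 7 with 1.36 and chromosome 9 with 1.34. The ratio was lowest on chromosomes 8 (1.20), 4 (1.19) and 10 (1.15, 1.06 to 1.26). All 10 ratios and their intervals were above 1, with a wide range between chromosomes.

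The place of the maximum differed between chromosomes. Of 20 stretches of 5% of the length, the fullest was that from 25% to 30% on chromosomes 6, 8 and 10, with 57.1, 51.1 and 50.7 peaks per Mb. It was that from 30% to 35% on chromosome 3 (53.6) and from 35% to 40% on chromosomes 4, 7 and 9 (52.0, 59.7 and 47.8). On chromosomes 1 and 2 it was that from 40% to 45% (52.9 and 49.5), and on chromosome 5 that from 55% to 60% (50.4). The maximum lay before the middle on 9 of the 10 chromosomes as numbered in the list. The fullest stretch was between 1.87 times (chromosome 8) and 2.44 times (chromosome 6) as dense as the emptiest one. Chromosome 4 departed from the interior pattern: its first 10% held 40.9 peaks per Mb, the highest of the 20 chromosome ends, and its emptiest stretch, with 21.4, lay at 70% to 75%.

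The interior excess was larger for strong sites. The central over outer ratio was 1.92 (1.78 to 2.07) in class 1, 1.72 in class 2 and 1.68 in class 3. It was 1.48 in class 4, 1.40 in class 5 and between 1.19 and 1.31 in classes 6 to 9, and 1.09 (1.02 to 1.17) in class 10. The ratio was thus lower in weak than in strong classes, and nearest to 1 in class 10. Between the stronger and weaker 50% of the list the ratios were 1.63 and 1.22. The corresponding values were 1.49 and 1.24 in OBF4, 1.29 and 1.29 in THX20, and 1.13 and 1.22 in CPP2, where the order was opposite. Grouping followed the density: 31.7% of central and 23.6% of outer peaks were grouped, but over what the 1 Mb bins give the folds were 3.78 and 3.89. Mappability and methylation along the chromosomes were not measured here, and their part in the profile was not tested.

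**Figure D3:**
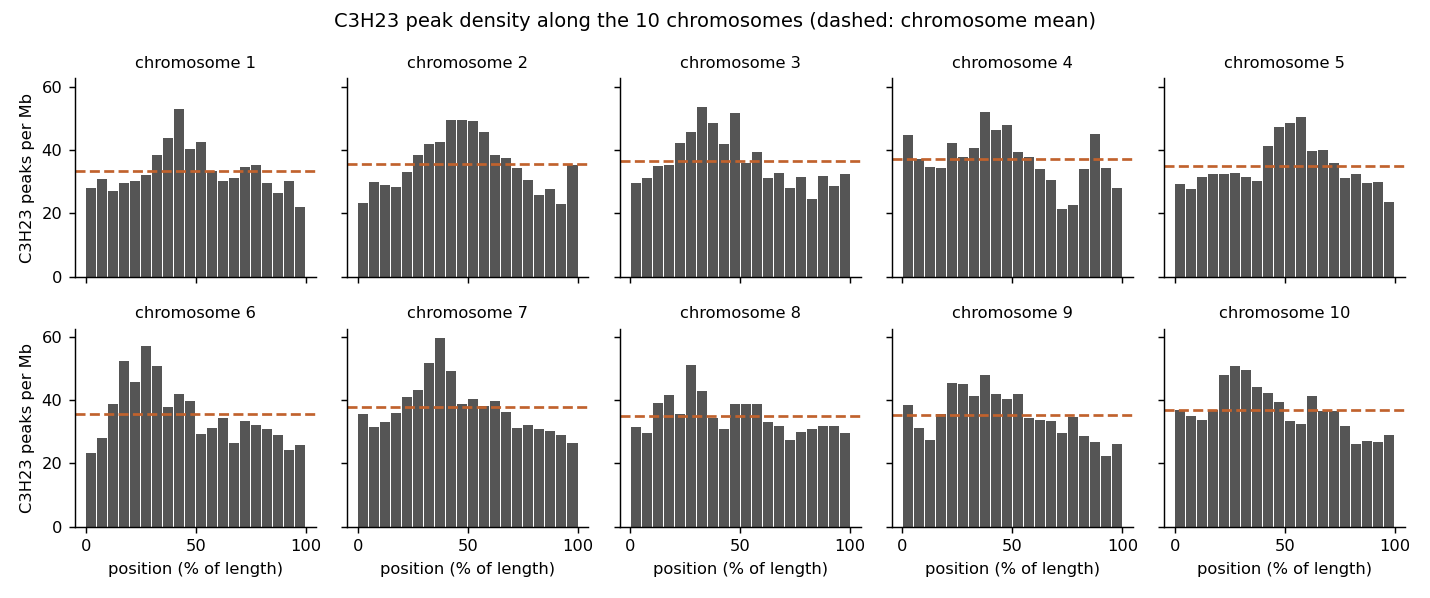
C3H23 peaks per Mb in 20 stretches of 5% of the length of each chromosome, with the chromosome mean dashed. The fullest stretch lies between 25% and 60% of the length on all 10 chromosomes, and chromosome 4 has further high stretches towards both ends.

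At the scale of 1 Mb, 2101 full bins held between 3 and 88 C3H23 peaks, with a median of 35. The variance was 3.63 times the mean, where independent placement at one density gives 1. Strong peaks were the more uneven ones, with a ratio of 1.93 for class 1 and 1.13 for class 10. The Spearman correlation between the counts of these classes was 0.107 over the 2101 bins, at means of only 3.57 and 3.58 peaks per bin. The fullest bin was on chromosome 6 from 49000001 to 50000000 with 88 peaks, of which 15.9% were grouped. Second was chromosome 7 from 59000001 to 60000000 with 79 peaks, of which 48.1% were grouped. Full bins therefore differed in their grouped share, and the share that each bin's own density gives was not set beside it. Further full bins were on chromosome 2 from 121000001 to 122000000 with 76 peaks and on chromosome 1 from 87000001 to 88000000 and from 129000001 to 130000000 with 75 each. The last count was shared by 4 bins, of which the first in chromosome order are named.

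The longest interval free of C3H23 summits lay on chromosome 6 from 11532277 to 12761240 (1229 kb). Further intervals of 682 and 744 kb followed it, from 12771183 to 13453427 and from 13682505 to 14426645. The other lists were nearly empty there too, with at most 3 CPP2, 0 OBF4 and 4 THX20 peaks in each of these 3 intervals. An interval of 961 kb on chromosome 9, from 74991604 to 75952864, had 4 CPP2, 2 OBF4 and 2 THX20 peaks. An interval of 713 kb on chromosome 1, from 250499039 to 251212031, had 6 CPP2, 1 OBF4 and 10 THX20 peaks, the most of the 5 longest. The emptiest bins included chromosome 6 from 12000001 to 13000000 with 3 C3H23 peaks and chromosome 9 from 75000001 to 76000000 with 5, and 12 were counted on chromosome 3 from 165000001 to 166000000. The bin on chromosome 2 from 224000001 to 225000000 differed from these, with 9 C3H23 peaks beside 69 CPP2, 25 OBF4 and 34 THX20 peaks. On chromosome 5 the bin from 216000001 to 217000000 had 11 C3H23 peaks beside 53 CPP2, 13 OBF4 and 34 THX20 peaks. The other lists had median counts of 78, 23 and 48 per bin and 5th percentiles of 56, 13 and 30. On chromosome 2 they lay above their 5th percentiles while C3H23 lay below its own of 20, and on chromosome 5 CPP2 and OBF4 were low as well. Over all bins, counts of C3H23 correlated with those of CPP2 (Spearman 0.481), OBF4 (0.499) and THX20 (0.573), lists that share the same DNA.

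C3H23 shared sites with each other list more often than uniform placement gives. A peak overlapped when it shared at least 1 bp with a peak of the other list, that is, with summits at most 200 bp apart. CPP2 overlapped 8249 C3H23 peaks, 10.8% (10.6 to 11.1), where uniform placement gives 2.77%. THX20 overlapped 6040 peaks, 7.94% (7.75 to 8.14), against 1.77%, and OBF4 overlapped 2696 peaks, 3.55% (3.42 to 3.68), against 0.945%. A local expectation was taken from the density of the other list 20 to 100 kb away from C3H23 summits, so that it carries the regional density. Over it the folds were 3.798 for CPP2, 3.57 for OBF4 and 4.26 for THX20. Counted from the other side, the overlap was 5.33% of CPP2, 5.01% of OBF4 and 6.17% of THX20 peaks. Of all C3H23 peaks 78.8% overlapped none of the 3 lists, 20.2% overlapped 1, 807 peaks overlapped 2 and 16 peaks overlapped all 3.

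The share with each factor followed signal class in a different way. With CPP2 it was 8.15% (7.56 to 8.79) in class 1, 7.96% in class 2, 8.88% in class 3, 9.83% in class 4 and 10.7% in class 5. It went on to 11.01%, 11.8%, 11.9% and 13.2% in classes 6 to 9 and to 15.2% (14.4 to 15.98) in class 10. Over the local expectation the fold was 2.83 (2.62 to 3.05) in class 1 and 5.38 (5.10 to 5.67) in class 10. Weak C3H23 sites were therefore the ones that most often met CPP2.

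With OBF4 the order was the opposite. The share was 5.79% (5.28 to 6.33) in class 1, 5.22% in class 2, 4.52% in class 3, 3.96% in class 4 and 3.52% in class 5. It continued with 3.18%, 2.88%, 2.33% and 2.05% in classes 6 to 9 and ended at 1.999% (1.71 to 2.34) in class 10, so that each class was below the one before it. The local fold was 5.58 (5.10 to 6.11) in class 1 and 2.09 (1.78 to 2.44) in class 10.

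With THX20 the share varied less between classes. It lay between 8.04% (class 6) and 8.84% (class 3) in classes 1 to 6. In classes 7 to 10 it was lower, between 7.02% (class 8) and 7.60% (class 9). The local fold was 4.25 (3.94 to 4.58) in class 1 and 4.08 (3.77 to 4.42) in class 10. The median signal of shared C3H23 peaks was 32.9 with CPP2, against 37 for those without CPP2. It was 45 with OBF4 and 38 with THX20, each against 36. When classes were made by −log10 p, the CPP2 fold of the weakest class was 3.73 in place of 5.38, still above the 2.67 of the strongest class.

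**Figure D4:**
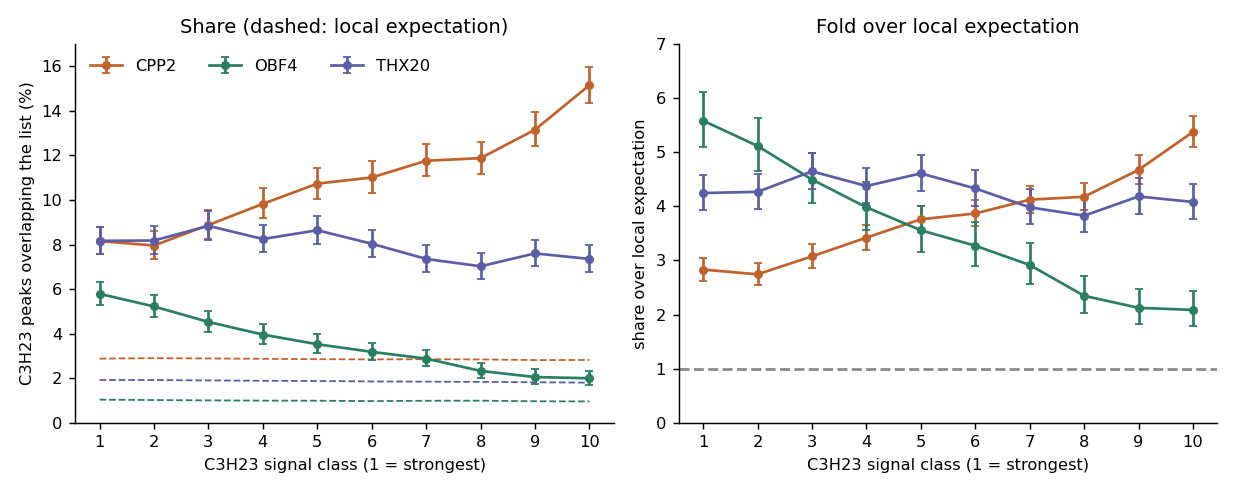
Overlap of C3H23 peaks with each other list by C3H23 signal class (1 is the strongest). The left panel gives the percent of peaks that overlap, with the local expectation dashed, and the right panel the fold over that expectation, both with 95% Wilson intervals. CPP2 runs from 2.83 to 5.38 fold, OBF4 from 5.58 to 2.09, and THX20 stays between 3.83 and 4.65.

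The strength of the partner peak was set beside the strength of the C3H23 peak. The partner's median percentile within its own list was 40.7 for CPP2, 35.0 for OBF4 and 51.0 for THX20, so CPP2 and OBF4 partners were below the middle of their lists. Across overlapping peaks the signals of the 2 factors had Spearman correlations of −0.0256 with CPP2, 0.0660 with OBF4 and 0.0781 with THX20. The partner's median percentile still differed between the end classes. It was 37.2 in class 1 and 20.7 in class 10 for OBF4, and 52.0 and 42.0 for THX20. For CPP2 the order was opposite, with 33.9 and 40.4. The classes between did not change evenly. Class 1 peaks overlapped the stronger 50% of OBF4 at 4.35 times the uniform expectation for that part of the list. For the weaker 50% the fold over uniform placement was 7.91. For class 10 these folds were 1.03 and 3.16, so weak C3H23 sites met strong OBF4 sites about as often as uniform placement gives. With CPP2 the folds were 1.99 and 3.65 in class 1, and 4.49 and 6.28 in class 10. With THX20 they were 5.01 and 4.39 in class 1, and 3.79 and 4.67 in class 10.

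Grouping and sharing were also set against each other. CPP2 overlapped 11.9% (11.7 to 12.2) of single and 8.13% (7.77 to 8.50) of grouped C3H23 peaks. OBF4 overlapped 3.36% (3.21 to 3.52) of single and 4.004% (3.75 to 4.27) of grouped peaks. THX20 showed 7.99% and 7.83%, with overlapping intervals. Within THX20, however, single and grouped peaks ran in opposite ways with signal. Among single peaks the share was 9.13% (8.21 to 10.1) in class 1 and 6.61% (6.01 to 7.27) in class 10. Among grouped peaks it was 7.38% (6.62 to 8.21) in class 1 and 9.99% (8.64 to 11.5) in class 10. The weak THX20 gradient over all peaks was the sum of these.

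The distance between summits showed at which range the lists met. Around class 1 C3H23 summits, CPP2 density relative to 20 to 100 kb was 4.34 (3.83 to 4.89) below 50 bp, 1.82 at 100 to 200 bp and 0.966 (0.847 to 1.10) at 300 to 500 bp. It was higher again at 500 to 1000 bp, with 2.58 (2.46 to 2.71). Around class 10 summits it was 4.65 (4.12 to 5.23) below 50 bp, 6.03 (5.60 to 6.49) at 100 to 200 bp, 2.25 at 300 to 500 bp and 1.30 at 500 to 1000 bp. Below 50 bp the classes had overlapping intervals. From 50 to 500 bp class 10 was above class 1 in each distance band, with 4.30 (3.79 to 4.86) against 2.77 (2.37 to 3.22) at 50 to 100 bp, and at 500 to 1000 bp the order was opposite. The median summit distance of overlapping peaks was 60 bp in class 1 and 105.5 bp in class 10.

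OBF4 differed most at the shortest range. Below 50 bp its density was 8.28 (7.07 to 9.64) around class 1 and 2.48 (1.81 to 3.30) around class 10 summits, and at 500 to 1000 bp it was 1.54 and 1.18. THX20 density was 4.96 (4.30 to 5.69) and 3.62 (3.04 to 4.28) below 50 bp. At 300 to 500 bp it was 1.89 (1.69 to 2.12) around class 1 and 3.41 (3.13 to 3.72) around class 10, so the order of the classes changed with distance.

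**Figure D5:**
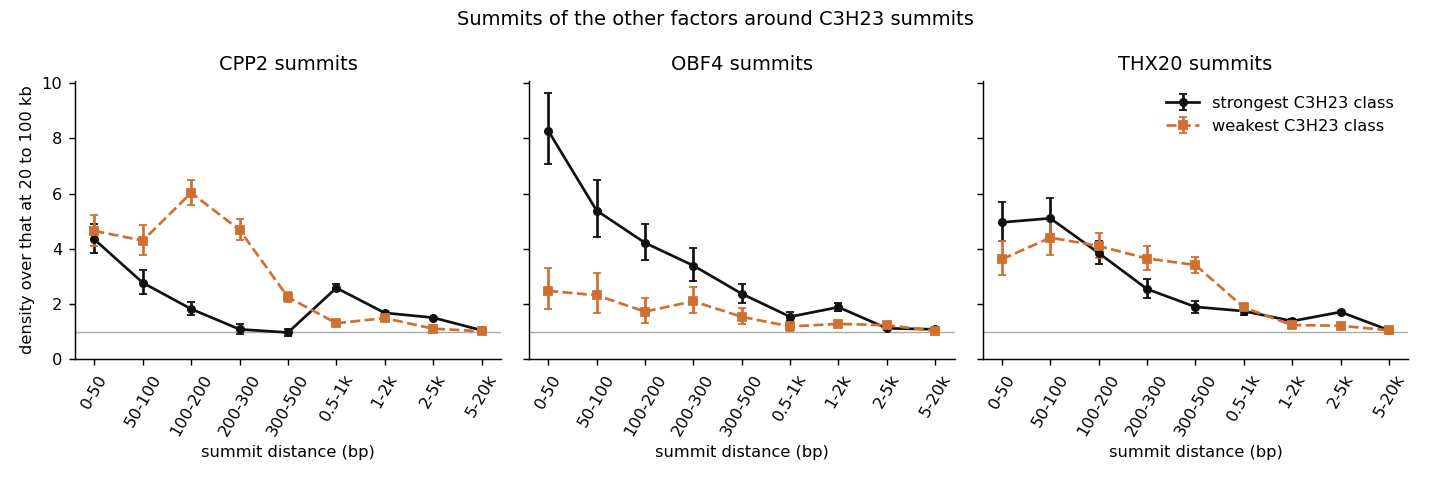
Density of CPP2, OBF4 and THX20 summits by distance from C3H23 summits of the strongest class (black) and the weakest class (orange, dashed), relative to the density at 20 to 100 kb (grey line at 1), with exact Poisson intervals. CPP2 reaches 6.03 at 100 to 200 bp around weak summits and 2.58 at 500 to 1000 bp around strong ones, and OBF4 reaches 8.28 below 50 bp around strong ones.

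Some exact distances between factors recurred. By the criteria used within the C3H23 list, but counted from 1 bp instead of 15 bp, there were 5 such distances to CPP2, 10 to OBF4 and 14 to THX20, without regard to which summit came first. Below 15 bp lay 1 of those to CPP2 (9 bp) and 2 of those to OBF4 (4 and 12 bp), and the shortest have fewer than 20 distances around them. For OBF4 the clearest was 542 bp, with 44 pairs where the surrounding 20 distances averaged 8.15. For THX20 it was 286 bp, with 152 pairs against 35.2, and for CPP2 it was 649 bp, with 56 pairs against 21.9. Some recurrent distances were 1 bp apart, such as 128 and 129 bp or 285 and 286 bp to THX20. Those of 542 and 545 bp to OBF4 were also close. The numbers of distances to THX20 and OBF4 are thus not numbers of separate maxima. Recurrent distances lay both inside and outside the range in which peaks overlap.

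The strongest shared sites had partners of varied strength. The strongest C3H23 peak that overlapped CPP2 was the one on chromosome 8 with a signal of 633, and its CPP2 partner had a signal of 25.1, at percentile 24.2 of the CPP2 list. The strongest that overlapped OBF4 was that on chromosome 4 with 572, with an OBF4 partner of 27 at percentile 37.2. The strongest that overlapped THX20 was on chromosome 10 from 4172659 to 4172859 with 541.2, and its THX20 partner of 96.3 was at percentile 92.5. The next strongest C3H23 peaks had CPP2 partners at percentiles 57.1 and 32.0, OBF4 partners at 74.4 and 11.1, and THX20 partners at 51.1 and 63.5. Among the 100 strongest C3H23 peaks, 57 were grouped, 12 overlapped CPP2, 3 OBF4 and 22 THX20. Among the 1000 strongest, 578 were grouped, 101 overlapped CPP2, 64 OBF4 and 135 THX20. Over all C3H23 peaks, 28.6% were grouped, 10.8% overlapped CPP2, 3.55% OBF4 and 7.94% THX20.

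C3H23 signal was also described by the combination of factors at a site. The median was 36.1 for peaks with no other factor, 35.6 for those with 1, 40 for those with 2 and 59.9 for the 16 peaks with all 3. The 16 peaks had signals from 21.2 to 247.1 and lay at fewer than 16 separate places. Peaks starting at 115412094 and 115412192 on chromosome 1 overlapped each other, as did those starting at 78660682 and 78660827 on chromosome 8. Among peaks with 2 other factors, the 495 with CPP2 and THX20 had a median of 36 and the 185 with CPP2 and OBF4 one of 45. The strongest of these 16 lay on chromosome 4 from 179431443 to 179431643 with a signal of 247.1. Its summit was 11 bp from that of CPP2, 54 bp from that of OBF4 and 72 bp from that of THX20. Those with OBF4 and THX20 but not CPP2 numbered 127, with a median signal of 56, of which 20.5% were in class 1. Peaks with CPP2 alone numbered 7553, with a median of 32, of which 7.18% were in class 1.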

How the data were processed

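DAP-seq peak lists of C3H23, CPP2, OBF4 and THX20 were used, 1 library each, grouped by sample title. The submitters' processing notes name Trimmomatic 0.39 and Bowtie2 2.4.1. Not given in the sources used here are the caller of the peaks, the control and the build. The deposited lists give, for peaks all 201 bp wide, the authors' score (not used), the authors' signal (scale not stated, used within a list only) and the deposited −log10 p and −log10 q. By the deposited names, blacklisted regions had been removed, and with them any sites they held.

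The members and lists were chosen with earlier results of these data known. The summit was taken 100 bp after the start. Sites were named by rule: the 10 strongest peaks, the strongest per chromosome, the 5 largest groups, the 5 fullest and 5 emptiest bins of 1 Mb, the 5 longest free intervals and the 3 strongest peaks shared with each list. Recurrent distances, sites of all 3 factors and the pairs named at 269 and 353 bp were chosen after their values were seen. Uniform expectations were computed in closed form per chromosome or contig, with lengths set by the last peak of the 4 lists, and local ones from summit pairs 20 to 100 kb apart. These are descriptions without p-values, and sequence where reads cannot be aligned was not left out. Profiles used the 10 chromosomes and other counts all sequences. Alternatives were other distances, classes, bins, overlap rules and subsets of peaks, and single C3H23 peaks only was added after seeing the data. Computation used Python 3.11.15, numpy 2.4.6, pandas 2.3.3, scipy 1.17.1 and matplotlib 3.10.9, and was tested on simulated data. Genes, motifs and sequences were left out, since the gene table at hand (Zm-B73-REFERENCE-NAM-5.0) has other coordinates: on 9 of 10 chromosomes its last gene lay past the last peak, by up to 7.25 Mb.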

Additional observations from a re-analysis of the deposited data

Results flagged for a closer look

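C3H23 peaks were also listed on contigs that are not placed on a chromosome, which the chromosome profiles do not use. There were 805 such peaks (1.06% of the list) on 132 contigs, of which 34 carried 1 peak. These peaks had passed the same listing limit as the others, and no control library was at hand. Their median signal was 41, 12.05% of them were in the strongest class, and 28.9% (25.9 to 32.2) had another C3H23 summit within 1 kb. The strongest had a signal of 401.2, on contig 128, and contig 150 held the most peaks, 86. CPP2 overlapped 12.8% of them, OBF4 5.47% and THX20 7.33%.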

How the results depend on the processing

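All 36 overlap folds under the alternatives were above 1 (1.99 to 5.62), as were the grouped and central over outer ratios, but sizes moved and the cause was not tested. Distance bands, exact distances and neighbour correlations were not recomputed. The grouped share was 22.96% within 500 bp (6.52 times uniform) and 35.5% within 2 kb (2.66 times). In the stronger 50% by signal it was 29.0% (8.22 times), by −log10 p 31.3% (8.86 times), with overlapping peaks joined 22.9% (3.43 times), and against 1 Mb bins 3.88 times. The central over outer ratio was 1.63 in the stronger 50% by signal and 1.60 by −log10 p. When over 50% of both peaks had to overlap, shares and uniform folds were 5.68% and 3.84 for CPP2, 2.23% and 4.63 for OBF4, and 4.07% and 4.29 for THX20. In the stronger 50% of each list by signal they were 3.75% and 2.60, 1.61% and 3.40, and 4.78% and 5.23. By −log10 p they were 4.12% and 2.88, 1.59% and 3.37, and 4.64% and 5.13. With equal numbers of strongest peaks they were 2.55% and 2.77, 4.21% and 4.45, and 4.50% and 5.08, so that CPP2, first in share over all peaks, came last. Over the local expectation the folds were 3.798, 3.57 and 4.26. The CPP2 fold of the weakest class was 3.73 by −log10 p and 5.02 with 5 classes. In single C3H23 peaks, chosen after seeing the data, the strongest class had folds of 3.35 for CPP2 and 4.79 for THX20, and the weakest 3.69 for THX20, against 4.25 and 4.08 in all peaks. Bins of 5 Mb gave Spearman correlations of 0.727, 0.769 and 0.779. The other 23 values stayed within the counting interval of the main value. No paired analysis was possible because there was 1 library per factor, which also leaves no replicate to omit. Read depth is unknown, so what it limits could not be judged.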

Other observations

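The surroundings of the strongest C3H23 peaks were looked at after their values had been seen. The peaks with signals of 657 on chromosome 2 and 652 on chromosome 4 had their nearest CPP2 summits at almost the same distance on the same side, 1051 and 1052 bp before the C3H23 summit. The nearest OBF4 summits lay 4210 and 4311 bp after it and the nearest THX20 summits 10581 and 10377 bp before it. Another THX20 summit lay 10540 bp before the peak on chromosome 4, nearer to the 10581 bp of chromosome 2. Other C3H23 summits did not match. Within 12 kb the peak on chromosome 2 had C3H23 summits 46 bp before and 6704 bp after it, and the peak on chromosome 4 had none. No sequence was compared.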
